A study of Mus musculus with 6 samples.

Results

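The TNF receptor superfamily genes Tnfrsf18, Cd27, Tnfrsf14, Ltbr, Tnfrsf1a, Fas, Tnfrsf25, Tnfrsf10b and Tnfrsf26 were followed in the RNA of BM Tregs. The 9 members were found by their feature names among the 36930 features of each library, and they leave out the 4 superfamily genes Tnfrsf1b, Tnfrsf4, Tnfrsf8 and Tnfrsf9, which the study singled out. Tregs were sorted from the BM of 3 naive and 3 CML mice, with 1 library for each mouse. All mice carried Foxp3-DTR-GFP, in which the Foxp3 locus drives a diphtheria toxin receptor fused to GFP, and were at post natal week 8. CML mice were recipients that had received LSKs (lineage-negative Sca-1+ c-Kit+ cells) transduced with BCR-ABL1-GFP, without irradiation, so that the hematopoiesis of the host was kept. The retroviral construct and the Treg reporter both carry GFP. The comparison of CML with naive Tregs asks which receptor genes differ in abundance in Tregs of the leukemic BM.

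Receptors of the TNF superfamily bind trimeric ligands on neighboring cells or in solution. One branch, which includes Gitr (Tnfrsf18), Cd27, Hvem (Tnfrsf14) and the lymphotoxin β receptor (Ltbr), recruits TRAF adaptors and signals to NF-κB. The other branch, which includes Tnfr1 (Tnfrsf1a), Fas, Dr3 (Tnfrsf25) and the TRAIL receptor Tnfrsf10b, carries a death domain in its cytoplasmic part and can recruit Tradd or Fadd, with caspase-8 below them. Tregs are known for high constitutive Gitr, and Gitr, Cd27 and Dr3 are costimulatory receptors of T cells. Tnfrsf26 is a mouse receptor that lacks a death domain.

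The deposited values were taken as RPKM, which scale the reads of a gene to its length in kilobases, here of coding sequence, and to the depth of the library. The libraries differed in depth, from an estimated 829200 reads in CML replicate 2 and 2286145 in CML replicate 3 to 9751233 in naive replicate 3. CML replicate 2 stood apart, because its 10 highest features took up 50.7% of all RPKM (28.5% to 31.3% elsewhere). The Treg genes Foxp3, Il2ra, Ikzf2 and Ctla4 and the T cell genes Cd3d, Cd3e, Cd3g and Cd4 were high in every library, with sums of 1889 to 2545 RPKM in CML Tregs and 1863 to 2101 RPKM in naive Tregs. Of the markers of other cells, the 7 erythroid genes summed to 35.6 to 204 RPKM in CML and 5.01 to 29.6 RPKM in naive libraries, and the 10 neutrophil genes to 12.0 to 232 RPKM and 32.6 to 54.3 RPKM. Fcgr1, Retnlg, Cxcl12 and Lepr were at 0 in all 6 libraries.

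No member passed an adjusted p of 0.05 with a fold of at least 1.5 in the fit over the 13923 genes that averaged 1 RPKM or more. That threshold called 0.172% of all genes tested, 24 in number, among them Tnfrsf9 of the receptors left out. Ltbr did not reach the mean of 1 RPKM, and 8 of the 9 members were tested. At an unadjusted p under 0.05 with the same fold, Tnfrsf18 was counted as higher and Tnfrsf25 as lower in CML Tregs, 2 members, whereas 8.55% of all genes tested passed this threshold, 2.61% as higher (363 genes) and 5.94% as lower (827 genes). Tnfrsf18 and Tnfrsf25 were also the members whose CML and naive values did not overlap, 1 higher, where 4.84% of all genes tested were, and 1 lower, where 12.2% were. Of the 8 tested members, 2 had a positive and 6 a negative log2 fold change, with a median of -0.55 against -0.18 over all genes tested. Of those 13923 genes, 4977 had a positive and 8946 a negative log2 fold change. The all-gene median was -0.01 after quantile normalization, where 624 genes were higher and 590 lower at the unadjusted threshold. The split was 533 higher and 672 lower with median-of-ratios scaling, and 502 and 690 with libraries scaled to the same sum without features over 1%. Over the 4 other scalings the log2 difference was 0.72 to 0.80 for Tnfrsf18 and -0.71 to -0.66 for Tnfrsf25. In bulk RNA, fewer cells that carry a transcript and less transcript in each cell cannot be told apart.

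**Figure D1:**
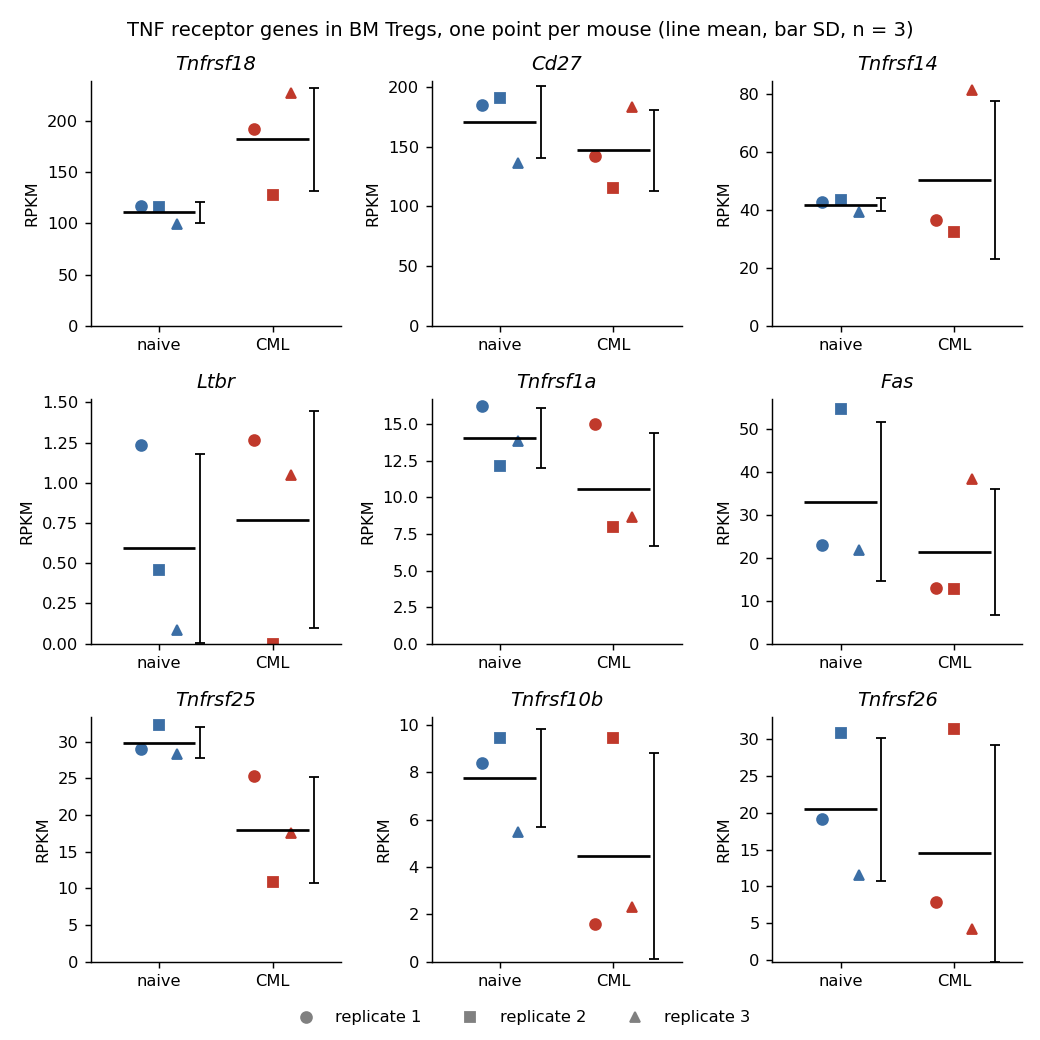
RPKM of the 9 receptor genes in BM Tregs of 3 naive (blue) and 3 CML (red) mice, with 1 point per mouse, the mean as a line and the SD as a bar. Tnfrsf18 and Tnfrsf25 are the genes without overlap between the groups, Tnfrsf18 from 128 RPKM upward in CML against at most 117 RPKM in naive Tregs, and Tnfrsf25 at most 25.3 RPKM in CML against at least 28.2 RPKM in naive Tregs.

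Tnfrsf18 and Tnfrsf25 lie on the same strand of chromosome 4, and the 250 bases before their RefSeq starts are shown because these are the members whose groups separated, in opposite directions. The sequences are from RefSeq on GRCm38.p6, 5′ to 3′ on the plus strand, chr4:156026072-156026321 for Tnfrsf18 and chr4:152115684-152115933 for the first of 2 RefSeq starts of Tnfrsf25. Capitals mark matches on either strand to the NF-κB-like letters GGGNNNNNCC, the AP-1 letters TGANTCA, the STAT letters TTCNNNGAA or the RUNX letters TGTGGT.
Tnfrsf18: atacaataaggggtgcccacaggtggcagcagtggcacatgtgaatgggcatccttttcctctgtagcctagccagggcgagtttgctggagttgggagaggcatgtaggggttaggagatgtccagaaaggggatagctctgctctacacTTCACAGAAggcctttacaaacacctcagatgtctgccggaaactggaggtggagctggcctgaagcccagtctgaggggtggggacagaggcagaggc
Tnfrsf25: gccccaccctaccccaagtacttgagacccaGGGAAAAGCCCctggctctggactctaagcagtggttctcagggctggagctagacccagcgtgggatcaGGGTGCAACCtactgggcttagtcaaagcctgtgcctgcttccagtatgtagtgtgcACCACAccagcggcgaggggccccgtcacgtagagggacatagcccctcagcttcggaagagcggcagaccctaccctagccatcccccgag
The Tnfrsf18 window held 1 match, to the STAT letters, which occur in 7.02% of the 32851 mouse promoter windows of this length. The Tnfrsf25 window held 3 matches to the NF-κB-like letters, of which 2 overlap on opposite strands, and 1 to the RUNX letters, which occur in 14.0% of windows. Promoter windows were found for 7 of the 9 members. Counting both Tnfrsf25 windows, the NF-κB-like letters were in 6 of these 7 (Tnfrsf18 being the other) and in 45.8% of all windows, the STAT letters in 4 of 7 (Tnfrsf18, Tnfrsf1a, Fas and the second window of Tnfrsf25), and the AP-1 letters in 1 of 7 (Fas) and in 6.75% of all windows. These matches describe letters only. In the GENCODE annotation Tnfrsf18 starts at base 156026164, inside its window, and the STAT match lies beyond that start. The windows of Tnfrsf14 and Tnfrsf1a and the second window of Tnfrsf25 lie within the annotated genes. By that annotation these stretches are not upstream sequence.

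Tnfrsf18, which encodes Gitr, was the most abundant member in CML Tregs and was higher there than in naive Tregs. Its values were 117, 116 and 99.1 RPKM in naive replicates 1, 2 and 3 and 192, 128 and 227 RPKM in CML replicates 1, 2 and 3. The lowest CML value belongs to the library with the fewest reads, and this value lay above the highest naive value. It rested on about 100 estimated reads, with a 95% Poisson interval of 104 to 155 RPKM. That interval contains the values of naive replicates 1 and 2, so the separation of this library is within counting error. Means were 111 ± 10.2 RPKM (SD, n = 3) in naive and 183 ± 50.3 RPKM (SD, n = 3) in CML Tregs, a ratio of 1.65. On the scale of log2(RPKM + 1), the difference was 0.68 with an SE of 0.23 and a 95% interval of 0.16 to 1.20, at an unadjusted p of 0.017 and an adjusted p of 0.392 (limma). The exact permutation test gave p = 0.1, the smallest value that 3 mice against 3 allow. The adjusted p was 0.048 and the log2 difference 0.79 in a voom fit to estimated reads, an alternative added after the data were seen, which called 1.38% of the 10754 genes in it. With 1 library left out, the log2 difference ranged from 0.50 (without CML replicate 3) to 0.91 (without CML replicate 2). Tnfrsf18 did not pass the unadjusted threshold with the fold of 1.5 without CML replicate 1, CML replicate 3 or naive replicate 3.

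Tnfrsf18 lies at chr4:156026164-156028895 (GRCm38, plus strand), 9551 bases beyond the end of Tnfrsf4, which encodes Ox40 and is on the same strand. Both genes were higher in CML Tregs, but not by the same factor. The ratio of Tnfrsf18 to Tnfrsf4 in the same library was 0.571, 0.662 and 0.543 in naive replicates 1 to 3 and 0.414, 0.451 and 0.503 in CML replicates 1 to 3. All 3 CML libraries thus had less Tnfrsf18 per Tnfrsf4 than any naive library. This pair was chosen after the values were seen and was not tested. The antisense gene Gm16008 overlaps Tnfrsf18, and 14.8% of the 76-base windows of Tnfrsf18 transcripts also occur in it, so that reads of both cannot be separated in an unstranded library.

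Cd27, the receptor of Cd70, was the most abundant member in naive Tregs. It measured 185, 191 and 136 RPKM in naive replicates 1 to 3 and 143, 116 and 183 RPKM in CML replicates 1 to 3, and the groups overlapped. Means were 171 ± 30.1 RPKM (SD, n = 3) and 147 ± 33.9 RPKM (SD, n = 3), and the log2 difference was -0.22 with a 95% interval of -0.73 to 0.28 (limma, adjusted p = 0.743). A fold change of 1.5 in the negative direction lies within this interval, and one of 1.5 in the positive direction lies outside it. Cd27 lies on chromosome 6 (chr6:125232622-125237010, minus strand), in a cluster with Ltbr and Tnfrsf1a.

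The order of Tnfrsf18 and Cd27 was opposite in the 2 groups. In naive Tregs Cd27 exceeded Tnfrsf18 in every mouse, with ratios of Tnfrsf18 to Cd27 of 0.631, 0.611 and 0.728. In CML Tregs Tnfrsf18 exceeded Cd27 in every mouse, with ratios of 1.35, 1.11 and 1.24. The ratio averaged 0.657 ± 0.0629 (SD, n = 3) in naive and 1.23 ± 0.120 (SD, n = 3) in CML Tregs. It does not change with the scaling between libraries, and CML replicate 2 lay with the other CML libraries. The pair was chosen after its values were seen, so the ratio is a description without a test.

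**Figure D2:**
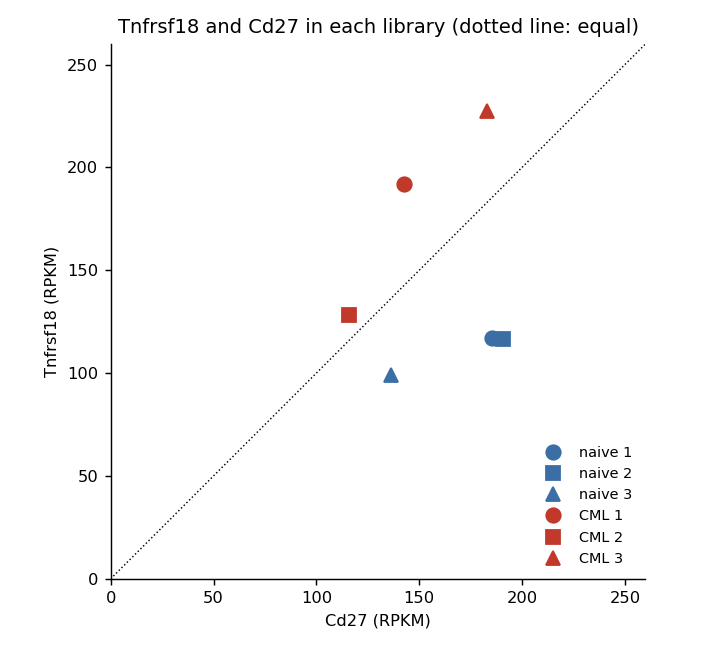
Tnfrsf18 against Cd27, both in RPKM, with 1 point for each mouse and a dotted line where the genes are equal. All 3 CML libraries lie above the line, with ratios of 1.11 to 1.35, and all 3 naive libraries below it, with ratios of 0.611 to 0.728.

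Tnfrsf14, which encodes Hvem, the receptor of Light and partner of Btla, was even among naive mice and uneven among CML mice. Its values were 42.6, 43.3 and 39.2 RPKM in naive replicates 1 to 3, and 36.4, 32.4 and 81.5 RPKM in CML replicates 1 to 3. The CML libraries thus lay on both sides of the naive libraries. The log2 difference was 0.14 with a 95% interval of -0.65 to 0.92 (limma, adjusted p = 0.906), and its sign rested on CML replicate 3, since it was -0.27 without that library. Btla, the inhibitory receptor that Hvem engages, averaged 40.33 ± 14.76 RPKM (SD, n = 3) in naive and 49.97 ± 20.01 RPKM (SD, n = 3) in CML Tregs. Tnfrsf14 is at chr4:154921933-154928563 on the minus strand.

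Ltbr, the receptor of lymphotoxin heterotrimers, was close to the limit of detection. Its values corresponded to whole reads over its 1248 coding bases, with 8, 5 and 1 reads in naive replicates 1 to 3 (1.24, 0.457 and 0.082 RPKM) and 12, 0 and 3 reads in CML replicates 1 to 3 (1.26, 0 and 1.05 RPKM). A count of 0 in CML replicate 2 allows up to 2.90 RPKM as a floor of 3 reads, and 3.56 RPKM as the upper end of its exact 95% Poisson interval, which are above the value in any other library, so a difference was not detectable at this depth. Its neighbors in the cluster, Cd27 and Tnfrsf1a, were measured at far higher levels in the same libraries. Intervals and floors for reads describe the error of counting alone, since PCR copies of a molecule were not told apart.

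All 4 death domain receptors had lower means in CML than in naive Tregs, but none passed the adjusted threshold. A negative log2 fold change was common, with 8946 of the 13923 genes tested. Tnfrsf25, which encodes Dr3, the receptor of Tl1a, showed the clearest separation. It measured 29.0, 32.3 and 28.2 RPKM in naive replicates 1 to 3 and 25.3, 10.9 and 17.6 RPKM in CML replicates 1 to 3. The naive libraries were close together and the CML libraries all lay below them, over a wider range. The highest CML value, of replicate 1 on about 238 estimated reads, had a 95% Poisson interval of 22.2 to 28.7 RPKM. That interval contains the value of naive replicate 3. Means were 29.8 ± 2.13 RPKM (SD, n = 3) and 17.9 ± 7.22 RPKM (SD, n = 3), and the log2 difference was -0.78 with an SE of 0.32 and a 95% interval of -1.52 to -0.04, at an unadjusted p of 0.042 and an adjusted p of 0.501 (limma). The exact permutation test again gave its smallest p of 0.1. The difference was -0.48 without CML replicate 2, so the shallowest library contributed much of its size, and the remaining CML libraries still lay below all naive libraries. It was -0.50 with library weights and -0.47 in the voom fit, and with 1 library left out Tnfrsf25 passed the unadjusted threshold only without CML replicate 1 (-1.05). Tnfrsf25 is at chr4:152115934-152120119 on the plus strand.

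Tnfrsf1a, which encodes the ubiquitous TNF receptor, overlapped between the groups. It measured 16.2, 12.1 and 13.8 RPKM in naive replicates 1 to 3 and 15.01, 7.95 and 8.65 RPKM in CML replicates 1 to 3. CML replicate 1 lay within the naive range and the other CML libraries below it, on 9 and 27 reads. The log2 difference was -0.43 with a 95% interval of -1.22 to 0.37 (limma, adjusted p = 0.699). Tnfrsf1b, the receptor for the same ligand that lacks a death domain, measured 80.4 to 88.2 RPKM in naive and 148 to 231 RPKM in CML Tregs.

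Fas, the receptor of Fasl, varied more within groups than between them. It measured 23.0, 54.5 and 21.7 RPKM in naive replicates 1 to 3 and 12.9, 12.8 and 38.4 RPKM in CML replicates 1 to 3. Naive replicate 2 and CML replicate 3 were each the high library of their group. The log2 difference was -0.67 with a 95% interval of -1.85 to 0.51 (limma, adjusted p = 0.691), and with 1 library left out it ranged from -1.17 (without CML replicate 3, where the groups did not overlap) to -0.25 (without naive replicate 2). The gene spans 37107 bases at chr19:34290666-34327772 on the plus strand.

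Tnfrsf10b, which encodes the mouse TRAIL receptor, was low in CML replicates 1 and 3 and not in CML replicate 2. It measured 8.41, 9.45 and 5.46 RPKM in naive replicates 1 to 3, on 50, 95 and 61 reads. CML replicates 1, 2 and 3 had 1.61, 9.47 and 2.29 RPKM, on 14, 9 and 6 reads. The 95% Poisson intervals were 0.877 to 2.69 RPKM for CML replicate 1, 4.33 to 18.0 RPKM for replicate 2 and 0.840 to 4.98 RPKM for replicate 3, and the interval of CML replicate 2 contained all 3 naive values. The log2 difference over all libraries was -0.94 with a 95% interval of -2.32 to 0.44 (limma, adjusted p = 0.640). With 1 library left out it ranged from -1.55 (without CML replicate 2) to -0.55 (without CML replicate 1). Without CML replicate 2 the groups did not overlap and the mean of the naive libraries was 3.99 times that of the CML libraries. Of the Tnfrsf10b transcript windows of 76 bases, 2.44% also occur in transcripts of other genes. The gene lies at chr14:69767472-69784411 on the plus strand.

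Tnfrsf26, like Tnfrsf10b, was highest within the CML group in CML replicate 2, while CML replicates 1 and 3 stood in the opposite order. It measured 19.1, 30.8 and 11.5 RPKM in naive replicates 1 to 3, on 61, 166 and 69 reads, and 7.90, 31.4 and 4.27 RPKM in CML replicates 1 to 3, on 37, 16 and 6 reads. The value of CML replicate 2 had a 95% Poisson interval of 17.9 to 51.0 RPKM, which does not reach the intervals of CML replicate 1 (5.56 to 10.9 RPKM) or CML replicate 3 (1.57 to 9.29 RPKM). The log2 difference was -0.80 with a 95% interval of -2.35 to 0.75 (limma, adjusted p = 0.706). With 1 library left out it ranged from -1.55 (without CML replicate 2) to -0.24 (without CML replicate 3), and was -0.46 without naive replicate 2. With CML replicate 2 left out, 3 members were lower in CML without overlap (Tnfrsf25, Tnfrsf10b and Tnfrsf26), where 15.9% of all genes tested were, and Tnfrsf18 was higher, where 13.9% were. Without that library Tnfrsf18, Tnfrsf10b and Tnfrsf26 passed the unadjusted threshold with the fold of 1.5, as 10.5% of all genes tested did, and no member passed the adjusted one.

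Tnfrsf26 lies at chr7:143607659-143628722 on the minus strand, 6083 bases from Tnfrsf22, a decoy receptor for TRAIL, with Tnfrsf23 beyond it. Tnfrsf22 had the same high value in CML replicate 2, with 7.46, 8.21 and 13.0 RPKM in naive replicates 1 to 3 and 1.62, 21.2 and 3.08 RPKM in CML replicates 1 to 3. Tnfrsf23 was lower in CML without overlap, at 2.08, 3.06 and 3.62 RPKM in naive and 1.17, 1.67 and 1.83 RPKM in CML Tregs, and its unadjusted p was 0.229 (limma). These values are near the floor. In CML replicate 2, 1 read of a gene of the length of Tnfrsf22 equals 2.02 RPKM, and the reads of Tnfrsf23 were not estimated. An antisense gene, E230032D23Rik, overlaps these genes, and 1.08% of the Tnfrsf26 windows occur in it. The 10 neutrophil genes had sums of 213 RPKM for CML replicate 2 and 232 RPKM for CML replicate 3, where Tnfrsf26, Tnfrsf22 and Tnfrsf10b were low, and whether other cells contributed to the values of Tnfrsf26, Tnfrsf22 and Tnfrsf10b in this library was not tested.

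**Figure D3:**
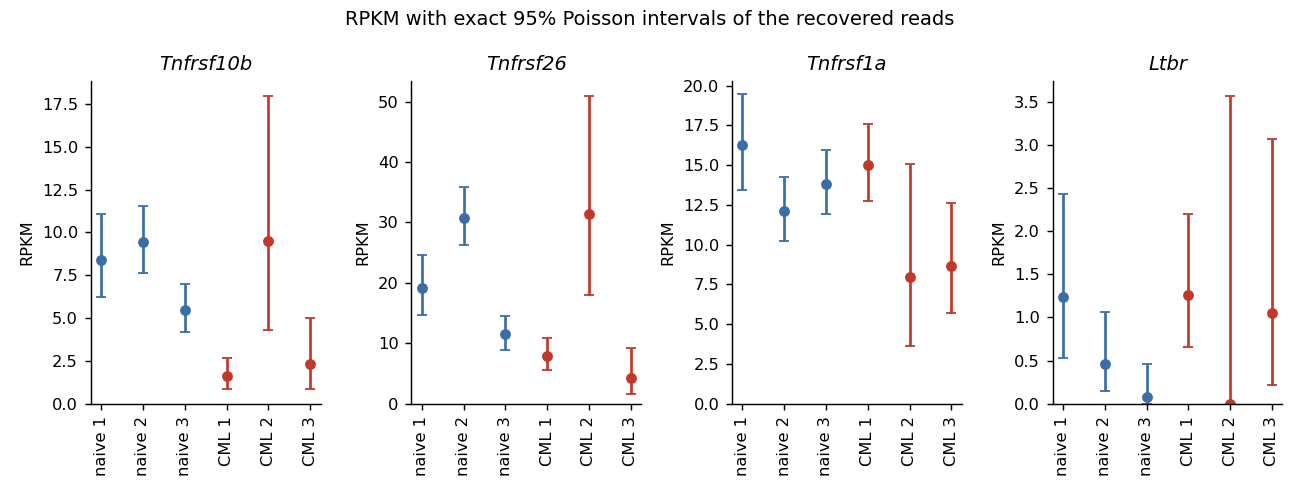
RPKM of Tnfrsf10b, Tnfrsf26, Tnfrsf1a and Ltbr, the members whose values are whole reads in all 6 libraries, with exact 95% Poisson intervals of the reads (naive blue, CML red). The intervals of CML replicate 2 are the widest in each panel, from 4.33 to 18.0 RPKM for Tnfrsf10b and from 17.9 to 51.0 RPKM for Tnfrsf26, and cover counting error only.

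The differences of the 8 tested members and of the 4 receptors left out were set side by side, from the same fit and the same control libraries. Tnfrsf4, Tnfrsf1b, Tnfrsf8 and Tnfrsf9 had log2 differences of 1.06, 1.23, 2.68 and 2.16, and were picked by the study from these samples for being higher in CML. Tnfrsf18, with 0.68, was the only tested member with a positive interval. Relative to the median of all genes tested, the difference was 0.86 for Tnfrsf18 and -0.60 for Tnfrsf25.

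**Figure D4:**
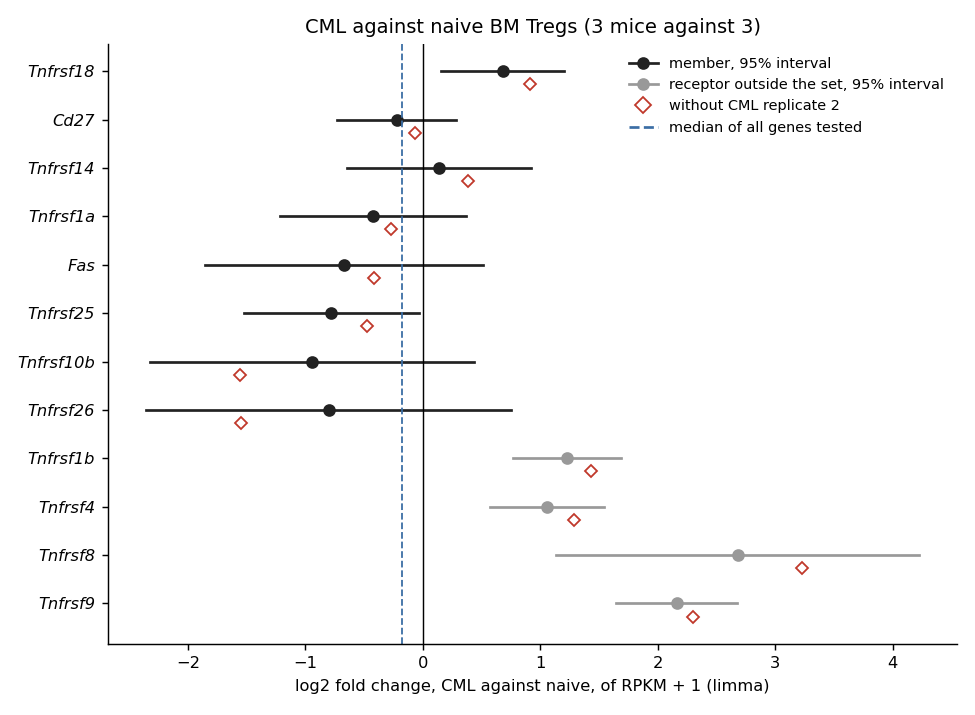
Log2 fold change of RPKM + 1 between CML and naive BM Tregs with 95% intervals (limma), for the 8 tested members (black) and the 4 receptors left out (gray), with the value without CML replicate 2 as an open diamond and the median of all genes tested as a dashed line. The interval of Tnfrsf18 runs from 0.16 to 1.20 and that of Tnfrsf25 from -1.52 to -0.04, and the intervals of the other 6 members include 0.

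The summed RPKM of the 28 superfamily genes was 706 to 822 in naive and 962 to 1473 in CML Tregs. The sum over the 9 members overlapped between the groups, at 355 to 490 RPKM in naive and 349 to 564 RPKM in CML Tregs. The sum over the 4 receptors left out was 301 to 314 RPKM in naive and 573 to 890 RPKM in CML Tregs. The members therefore held 50.3% to 59.6% of the receptor RNA in naive Tregs and 32.7% to 38.3% in CML Tregs.

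Within this sum, the share of Tnfrsf18 was 14.3% ± 0.383 (SD, n = 3) in naive and 14.4% ± 1.06 (SD, n = 3) in CML Tregs, so that Tnfrsf18 kept pace with the family sum. The share of Cd27 was 22.0% ± 2.33 (SD, n = 3) in naive and 11.7% ± 0.903 (SD, n = 3) in CML Tregs. In percentage points, the shares of Fas (-2.57), Tnfrsf25 (-2.45) and Tnfrsf1a (-0.98) were also lower in every CML library than in any naive library. For Cd27, Fas, Tnfrsf25 and Tnfrsf1a the exact permutation test gave p = 0.1, the smallest value possible, over 9 members compared, so no share could pass 0.05. The denominator contains the receptors that were higher in CML. Among the 9 members alone, the share of Tnfrsf18 was 26.05% ± 2.10 (SD, n = 3) in naive and 40.4% ± 3.71 (SD, n = 3) in CML Tregs, and that of Cd27 was 39.7% ± 1.95 (SD, n = 3) and 32.8% ± 0.362 (SD, n = 3).

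**Figure D5:**
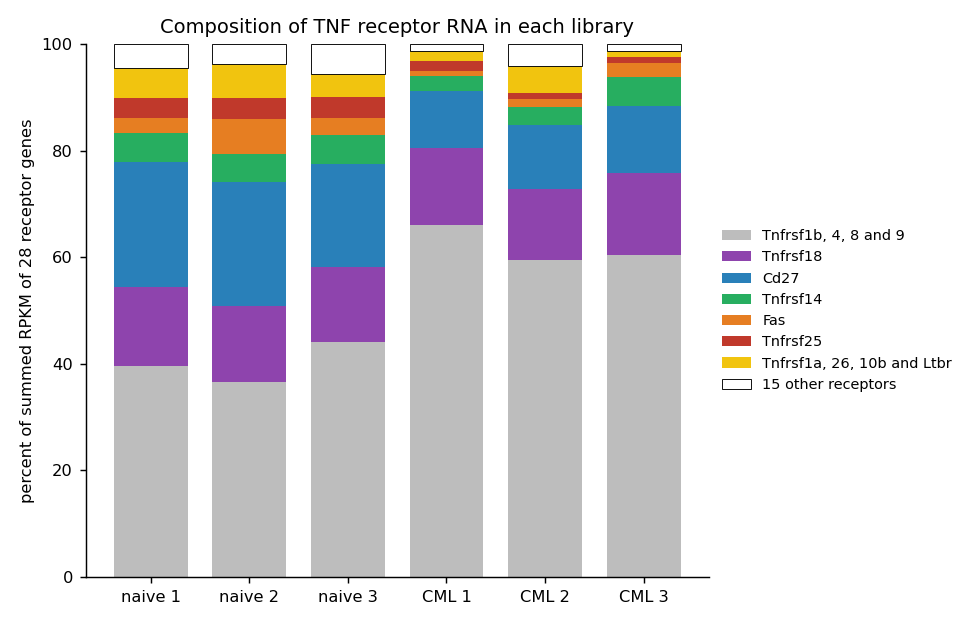
Percent of the summed RPKM of 28 TNF receptor genes in each library, with the 4 receptors left out in gray, the members in color and 15 other receptors in white. The gray part takes 36.6% to 44.1% in naive and 59.5% to 66.1% in CML Tregs, the Tnfrsf18 part 13.3% to 15.4% in all libraries, and the Cd27 part 19.3% to 23.4% in naive and 10.7% to 12.4% in CML Tregs.

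Relative to Cd3e in the same library, a ratio that does not change with the scaling between libraries, Tnfrsf25 was lower in all CML libraries than in any naive library, with a log2 difference of -1.05 (exact permutation p = 0.1). Tnfrsf18 relative to Cd3e overlapped between the groups, with a log2 difference of 0.45 (exact permutation p = 0.2), as it did relative to Cd3g (0.58, exact permutation p = 0.2), and did not overlap relative to Cd4 (0.67) or Foxp3 (0.47). The other members overlapped relative to Cd3e, with log2 differences of -0.45 for Cd27, -0.09 for Tnfrsf14, -0.70 for Tnfrsf1a, -0.93 for Fas, -1.44 for Tnfrsf10b and -1.12 for Tnfrsf26. Relative to Foxp3, Tnfrsf1a did not overlap, with a log2 difference of -0.68 (exact permutation p = 0.1). Ltbr was left out because of its value of 0.

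By mean RPKM, a scale per coding length, the order in naive Tregs was Cd27, Tnfrsf18, Tnfrsf14, Fas, Tnfrsf25, Tnfrsf26, Tnfrsf1a, Tnfrsf10b and Ltbr. Cd27 and Tnfrsf18 each lay above the next gene in every naive library, and Tnfrsf10b lay below Tnfrsf1a and above Ltbr without overlap. From Tnfrsf14 (41.7 ± 2.18 RPKM, SD, n = 3) to Tnfrsf1a (14.1 ± 2.07 RPKM, SD, n = 3), neighbors in the order overlapped. In CML Tregs Tnfrsf18 and Cd27 changed places and their ranges overlapped across mice, and the rest of the order was the same. There, from Tnfrsf14 (50.1 ± 27.2 RPKM, SD, n = 3) to Tnfrsf10b (4.46 ± 4.36 RPKM, SD, n = 3), every neighbor overlapped the next. The coefficient of variation of Tnfrsf14 was 5.23% among naive and 54.3% among CML mice, that of Tnfrsf25 7.13% and 40.3%, and that of Tnfrsf10b 26.6% and 97.8%. It was 9.17% and 27.5% for Tnfrsf18, 17.64% and 23.05% for Cd27, and 14.8% and 36.9% for Tnfrsf1a. For Fas it was 56.2% and 69.2%, for Tnfrsf26 47.4% and 101%, and for Ltbr 99.5% and 87.7%. The spread among CML mice includes counting error, with 11 reads of Tnfrsf25 in CML replicate 2 and 14, 9 and 6 reads of Tnfrsf10b in CML replicates 1 to 3.

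Over the 6 libraries, the genes most like Tnfrsf18 in log2(RPKM + 1) were Top2a, Pdia3 and Hist1h2ao, with Pearson r of 0.997, 0.992 and 0.986. Top2a, the topoisomerase of dividing cells, measured 27.1 to 32.7 RPKM in naive and 34.7 to 65.8 RPKM in CML Tregs. Among the receptors, r with Tnfrsf18 was 0.948 for Tnfrsf4 and 0.921 for Tnfrsf1b, and 0.165 for Cd27. The genes most like Cd27 were Rpl32, Snx17 and 2810006K23Rik, with r of 0.999, 0.999 and 0.996. Tnfrsf10b and Tnfrsf26 had an r of 0.910 with each other. These values describe 6 points of 2 groups that share library and depth, and no test was made.

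Of the other 15 superfamily genes, 5 were tested and none passed the adjusted threshold. Tnfrsf13b, which encodes Taci, had 12.1, 7.90 and 9.85 RPKM in naive replicates 1 to 3 and 5.95, 1.61 and 0 RPKM in CML replicates 1 to 3, on 34, 1 and 0 reads. Its log2 difference was -2.04 with an unadjusted p of 0.020 and an adjusted p of 0.417 (limma), and the groups did not overlap. This value depends on the pseudocount, with -3.29 for 0.1 and -5.53 for 0.001, and was -1.34 without CML replicate 3. Tnfrsf11b, Tnfrsf19, Ngfr, Eda2r and Edar were at 0 in all libraries, and Tnfrsf17 was at 0 in the CML libraries and in 2 of 3 naive libraries.

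None of the 8 tested genes among 11 ligands and partners passed either threshold, with a median log2 difference of -0.21. The Gitr ligand Tnfsf18 was at 0 in every library, which allows up to 0.589 RPKM in naive replicate 3 and up to 6.93 RPKM in CML replicate 2. Tnfsf15, which encodes the Dr3 ligand Tl1a, was at 0 in all CML libraries and in 2 of 3 naive libraries. Ltb, a subunit of the Ltbr ligand, was the only ligand whose groups did not overlap, at 343, 354 and 342 RPKM in naive replicates 1 to 3 and 252, 211 and 324 RPKM in CML replicates 1 to 3, with a log2 difference of -0.42 (limma, adjusted p = 0.507).

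Of the 18 rows of adaptors and death pathway genes, in which Traf5 has 2 rows, 9 had a positive and 9 a negative log2 difference, with a median of -0.02, and none passed the adjusted threshold. Map3k14, the kinase Nik of the non-canonical NF-κB pathway, measured 22.1, 28.2 and 24.6 RPKM in naive replicates 1 to 3 and 16.7, 11.9 and 17.9 RPKM in CML replicates 1 to 3, with a log2 difference of -0.67 (limma, unadjusted p = 0.036, adjusted p = 0.487), and the groups did not overlap. Fadd, Tradd, Ripk1, Casp8, Cflar, the Traf genes, Birc2 and Birc3 overlapped between the groups.

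The summed erythroid, progenitor, and stromal and endothelial markers did not overlap between the groups, and those of the other cell types did. Of the erythroid genes, 6 of 7 had higher means in CML, and Hbb-bs, a β-globin gene, measured 1.39 to 6.16 RPKM in naive and 19.0 to 75.9 RPKM in CML libraries. Of the neutrophil genes, 9 of 10 had higher means in CML, led by CML replicates 2 and 3, and their sum in CML replicate 1 was 12.0 RPKM, below every naive library. Of the 3 progenitor genes, which summed to 0.263 to 3.14 RPKM in naive and 4.64 to 8.77 RPKM in CML libraries, Gata2 did not overlap between the groups. Of the 4 stromal and endothelial genes, only 1 had a higher mean in CML. This was the endothelial gene Cdh5, at 1.02 to 4.49 RPKM in naive and 5.58 to 8.54 RPKM in CML libraries. Col1a1 averaged 0.291 RPKM in naive and 0.0803 RPKM in CML libraries, and Cxcl12 and Lepr were at 0. The sums of the CD8 T cell genes (26.2 to 58.7 RPKM in naive and 51.1 to 74.2 RPKM in CML libraries), the B cell genes (8.42 to 10.7 RPKM and 3.18 to 8.80 RPKM), the NK cell genes (5.35 to 16.2 RPKM and 5.64 to 18.7 RPKM) and the monocyte and macrophage genes (37.7 to 56.9 RPKM and 34.2 to 62.2 RPKM) overlapped. The part of these cells in the values of the members was not tested.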

How the data were processed

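Per the labels, RNA of FACS-purified BM Tregs was amplified with SMART-Seq v4. The authors sequenced single-end reads and assembled and analyzed them with DNASTAR software. GRCm38/mm10 is the build in the submitters' processing notes. The sources used here do not name the unit of the deposited values, which were taken as RPKM. Multiplied by the coding length of GENCODE M21, values of up to 20 reads lay within 0.05 of whole reads in 71.8% to 75.7% of cases (14.5% to 17.6% with transcript length, 10% by chance), over 8135 genes with 1 coding length. The size of 1 read gave the estimated reads per library. A deposited 0.001 marks features without reads and was set to 0.

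CML and naive Tregs were compared with limma 3.58.1 (R 4.3.3) on log2(RPKM + 1) over genes averaging 1 RPKM or more, with a trended prior variance and Benjamini-Hochberg adjustment, since the values are not counts. Exact 2-sided permutation tests served for single values. Intervals of reads are exact Poisson intervals. Replicate numbers did not pair the mice (correlations of deviations -0.005, -0.002 and -0.019). Members, lists and named genes (all members, the receptors left out, list genes that were called, did not overlap or were at 0 in a whole group, and 3 genes most like Tnfrsf18 and Cd27) were chosen with earlier results of these data known. Some genes that fall under this rule are not reported here. Python 3.11.15, numpy 2.4.6, pandas 2.3.3 and scipy 1.17.1 were used for the other steps.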

Additional observations from a re-analysis of the deposited data

How the results depend on the processing

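Of 144 recomputed member differences, 142 kept their direction and their side of the adjusted threshold. Tnfrsf14 ranged from -0.27 (without CML replicate 3) to 0.38 (without CML replicate 2) with 1 library left out, and Tnfrsf18 passed the threshold in the voom fit to estimated reads, the alternative added after the data were seen, which made it 1 member called against 0. The number of genes called was 24 as reported, and 0 with a pseudocount of 0.001, 1 without a filter on low values, 53 with the same 75th percentile, 53 with quantile normalization, 46 with median of ratios, 50 with the same sum without features over 1%, 11 without a trend in the prior variance, 45 with library weights and 148 with voom. Leaving out 1 library gave 0 to 17 genes, with 0 without any of the naive replicates and 6 without CML replicate 3, and 742 to 1778 genes at the unadjusted threshold, with 782 without naive replicate 1 and 742 without naive replicate 2. With the replicate number as a block, 1 gene was called and 1 member (Tnfrsf18) passed the unadjusted threshold. That count of members was 0 without a trend and 0 to 3 with 1 library left out (5.33% to 12.8% of all genes tested), with 1 without CML replicate 1 (Tnfrsf25), CML replicate 3 (Fas), naive replicate 1 or naive replicate 2 (Tnfrsf18) and 0 without naive replicate 3. Leaving out 1 library gave 1 to 3 members lower without overlap, where 15.9% to 23.2% of all genes tested were, with 2 without CML replicate 1 (Tnfrsf1a added) or naive replicate 3 (Cd27 added) 3 without CML replicate 2 (Tnfrsf10b and Tnfrsf26 added) and 3 without CML replicate 3 (Fas and Tnfrsf14 added). Among the shares, the difference of Tnfrsf14 was 0.87 and that of Ltbr 0.0269 percentage points over the sum of the 9 members, and with 1 library left out they ranged from -0.45 to 0.61 for Tnfrsf18 and from -0.0504 to 0.0218 for Ltbr. Relative to Cd3g and Cd4 in place of Cd3e, the log2 difference of Tnfrsf14 was 0.0337 and 0.12. The cause of these changes was not tested. At 829200 estimated reads, 3 reads of a gene of the length of Tnfrsf26 equal 5.88 RPKM in CML replicate 2, which limits the low members.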
